A study of Mus musculus with 14 samples.

Results

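The antiviral OAS and Mx genes were followed in mouse CD8 T cells: Oas1a, Oas1b, Oas2, Oas3, Oasl1, Oasl2, Mx1 and Mx2. These 8 genes were chosen by symbol and not by their values, and 8 of 8 had a row in both deposited tables, which together listed 15036 genes, 12539 of them in both. Naive CD8 T cells, with high CD62L and low CD44, were sorted from spleens of C57BL/6 mice that were wild type or Morrbid-/-, which lack the long noncoding RNA Morrbid by their label. Cells of all 4 groups were activated for 6 h with anti-CD3 bound to the plate and soluble anti-CD28, each at 1 µg/mL. IFN-beta, a type I interferon, was present at 20 ng/mL in 4 wild-type and 4 Morrbid-/- libraries and absent from the other 3 wild-type and 3 Morrbid-/- libraries. No source used here gives the animals' age and sex or the extent of the deletion. Nothing in the labels says that replicates came from separate animals, so p-values measure the spread between these libraries, which may be technical.

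2′-5′ oligoadenylate synthetases bind double-stranded RNA and join ATP into short 2′-5′ linked chains, second messengers of the antiviral 2-5A pathway. The Oasl proteins belong to the same family and carry ubiquitin-like domains, and Oasl1 is known for restraining translation of Irf7 mRNA. Mx proteins are dynamin-like GTPases that block replication of several viruses. Transcription of most of these genes is driven by ISGF3, a transcription factor complex with IRF9 as its DNA-binding part, which forms below the type I interferon receptor and binds interferon-stimulated response elements. C57BL/6 mice are known to carry defective alleles of Mx1 and Oas1b, so transcript levels of those genes say nothing about functional protein. The same limit holds for Mx2, which the annotations used here also list as a pseudogene.

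The members lie in 3 groups of neighbours on GRCm38 (GENCODE M21). Oas2 (chr5:120730333-120749853, minus strand), Oas3 (chr5:120753098-120777661, minus), Oas1b (chr5:120812635-120824163, plus) and Oas1a (chr5:120896256-120907521, minus) stand within 177189 bases. Oasl2 (chr5:114896936-114912234, plus) and Oasl1 (chr5:114923240-114937915, plus) are neighbours within 40980 bases of the same chromosome. Mx1 (chr16:97447035-97462907, minus) and Mx2 (chr16:97535308-97560900, plus) span 113866 bases. GENCODE lists Oas1b and Mx2 as polymorphic pseudogenes, and RefSeq lists Oas1b, Mx1 and Mx2 as transcribed pseudogenes. Of all 75-base stretches of the Oas1a transcripts, 47.6% also occur in Oas1g, so values of Oas1a are uncertain wherever the authors' counting could split or drop shared reads, and Oas1g is not analysed here. Mx1 shares 1.71% of its stretches with Mx2, and Mx2 shares 2.01% of its stretches with Mx1.

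Upstream sequence was read from a RefSeq promoter table (GRCm38.p6), in which 4 of the 8 members, Oas1a, Oas3, Oasl1 and Oasl2, had an entry; Oas2, Oas1b, Mx1 and Mx2 had none. The 250 bases before each start were searched on both strands for GAAANNGAAA (TTTCNNTTTC on the other strand), the core of the interferon-stimulated response element. The sequences below are shown because they hold matches next to members whose levels were far higher with IFN-beta than without it. Each is 120 bases, written 5′ to 3′ with matches in capitals. The Oas1a sequence (chr5:120907526-120907645, minus strand) and the Oas3 sequence (chr5:120777660-120777779, minus strand) end at the base before the RefSeq start. The last one is the whole gap between Oas1b and Oas1c (chr5:120812515-120812634), which are transcribed away from each other, written on the plus strand as Oas1b reads.
Oas1a: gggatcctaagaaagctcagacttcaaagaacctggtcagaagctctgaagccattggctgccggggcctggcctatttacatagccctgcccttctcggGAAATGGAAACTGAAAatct
Oas3: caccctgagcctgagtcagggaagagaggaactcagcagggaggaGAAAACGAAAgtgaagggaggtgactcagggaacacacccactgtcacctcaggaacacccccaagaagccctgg
Oas1b and Oas1c: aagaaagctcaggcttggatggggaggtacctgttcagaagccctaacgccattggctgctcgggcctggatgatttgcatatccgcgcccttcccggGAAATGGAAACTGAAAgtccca
Oas1a held 2 overlapping matches, at 20 to 11 and 14 to 5 bases before its start. The same 16-letter run stood in the gap before Oas1b, with matches at 22 to 13 and 16 to 7 bases before the start of Oas1b. Oas3 held 1 match, at 75 to 66 bases before its start. The windows of Oasl1 and Oasl2 held no match of these letters. Of 32851 windows of the same length in the table, 978, or 2.98%, held a match, and 269 of the 7802 genes tested with IFN-beta that had a window did, or 3.45%. A match describes these letters only.

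Values are deposited normalized counts unless another scale is named. Each value was a whole number of reads divided by a size factor, and depth, in recovered reads, was 1747634 to 2963149 per library without IFN-beta but 5788070 to 7355337 with the cytokine. All 9 CD8 T cell markers searched were in both tables and 0 of 9 differed by genotype in either one by limma. Summed markers of B cells, NK cells, monocytes and macrophages, and erythroid cells lay between 0 and 14.3 without IFN-beta and between 0 and 103 with it. The CD4 and regulatory T cell list summed to 612 to 726 in wild type and 751 to 910 in libraries labelled Morrbid-/- with IFN-beta, with Cd4 not listed in that table and 1 of 1 tested marker, Ikzf2, called (log2 0.28, SE 0.07, adjusted p = 0.0164). The dendritic cell list, there Zbtb46 alone, summed to 6.14 to 25.7 and 43.1 to 51.3 (log2 1.81, SE 0.31, adjusted p = 0.000324). Without IFN-beta the dendritic cell list, with 3 of 5 markers in the table, summed to 17.0 to 22.9 in wild type and 26.4 to 32.7 in libraries labelled Morrbid-/-, also without overlap, and its 1 tested marker was not called. The CD4 and regulatory T cell list there summed to 155 to 313 and 261 to 335, which overlapped, and 0 of 1 tested marker was called. The part of either list in the genotype differences below, those of Oas1b, Oasl2 and Oasl1 without IFN-beta included, was not tested. Morrbid itself did not follow its label without IFN-beta. It had 1.79, 4.16 and 1.53 in wild type and 7.10, 5.24 and 7.16 in libraries labelled Morrbid-/-, which are therefore named by their label throughout. These values are 2, 4 and 2 reads against 7, 4 and 7 reads. At so few reads, and with the strand setting of the counting unknown, they do not settle the genotype. The level of Morrbid with IFN-beta is not analysed here.

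**Figure D1:**
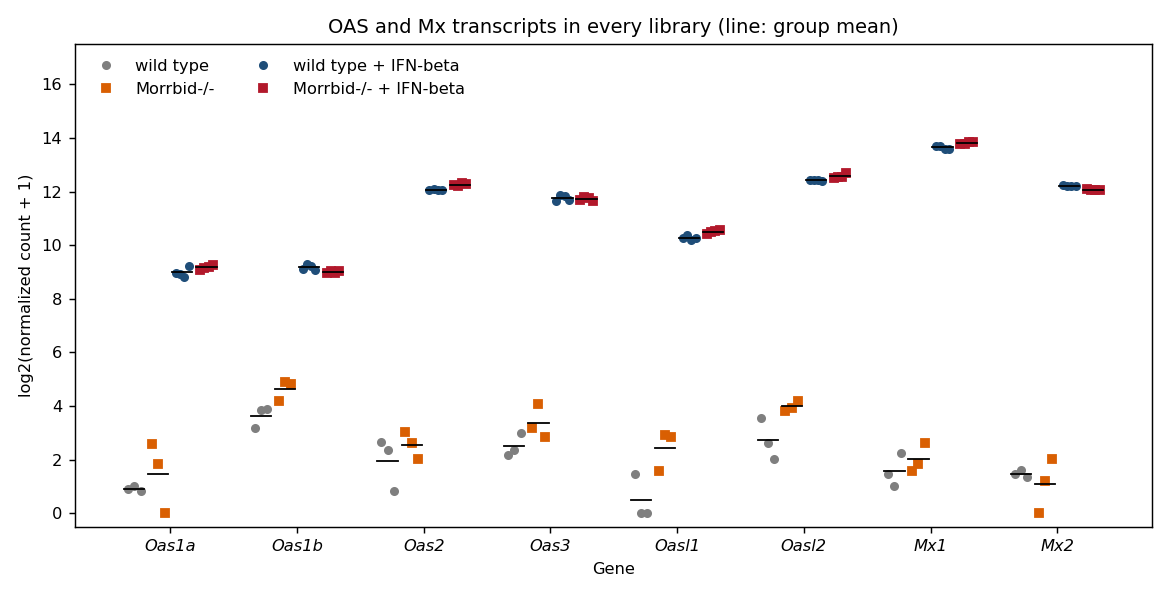
Levels of the 8 members in every library, as log2(normalized count + 1), with circles for wild type, squares for libraries labelled Morrbid-/- and a line at each group mean. The tables without and with IFN-beta were normalized separately. All members sit below 5 on this scale without IFN-beta and above 8 with it.

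Without IFN-beta the family was close to silent, and Oas1b was the one member with more than 20 reads in any library. All 8 members together had 108 of 8154854 reads in the 3 wild-type libraries and 180 of 6373421 reads in the 3 labelled Morrbid-/-. The mean was higher in the latter for 7 of 8 members. No share over all genes stands beside that count, so it is not read as a result. In bulk RNA, fewer cells that express a gene and less RNA per cell cannot be told apart. The mean of 6 of the 8 fell under the minimum of 10 normalized counts that the test required.

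Oas1b, a catalytically inactive relative of the synthetases known from flavivirus resistance, had 8.04, 13.5 and 13.8 normalized counts in wild type. In libraries labelled Morrbid-/- it had 17.2, 28.8 and 27.6, so every one of them lay above every wild-type library. The log2 difference, always the Morrbid-/- label minus wild type on log2(normalized count + 1), was 1.00 (SE 0.33), with an adjusted p of 0.405 by limma.

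Oasl2, an Oasl protein with 2′-5′ synthetase activity, had 10.7, 5.20 and 3.06 in wild type and 13.2, 14.4 and 17.4 in libraries labelled Morrbid-/-, again without overlap. Its log2 difference was 1.26 (SE 0.43; limma adjusted p = 0.459), and it reached the minimum mean through the Morrbid-/- level. Neither gene was called, so 0 of 2 members tested passed, where 0.635% of all genes tested did and 567 of 9290 genes had an unadjusted p under 0.05. By edgeR and by DESeq2 also 0 members passed. Of all genes tested, the groups did not overlap in 10.9%, which cannot be set against these members because the level in libraries labelled Morrbid-/- brought Oasl2 into the test. When all 14 libraries shared one estimate of the spread, both passed by limma, with adjusted p-values of 0.000867 for Oas1b and 0.000259 for Oasl2. That estimate includes the libraries with IFN-beta, where the SE fitted alone was smaller, 0.07 for Oas1b and 0.05 for Oasl2. It can thus understate the error without IFN-beta, so these p-values are not read as calls.

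Oasl1 had 1.79, 0 and 0 in wild type and 2.03, 6.55 and 6.14 in libraries labelled Morrbid-/-, which is 2 reads against 13. Replicate 1 had 2 reads in both genotypes, so the groups stood apart there by their size factors alone. A count of 0 allows up to 3 reads in such a library. With summed reads divided by the summed size factors of each group, the ratio was 8.07. Its 95% exact interval from counting error was 1.83 to 73.7. For Oas1b, 40 reads against 66 gave a ratio of 2.05 (1.36 to 3.12), and for Oasl2, 21 against 41 gave 2.43 (1.40 to 4.32). These intervals cover counting error only and not the spread between libraries.

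The remaining synthetase genes overlapped between genotypes. Oas3, the largest synthetase, had 3.58, 4.16 and 6.88 in wild type and 8.11, 15.7 and 6.14 in libraries labelled Morrbid-/-. Its ratio of reads per size factor was 1.90 (0.992 to 3.73). Oas2, a synthetase with 2 catalytic-type units in tandem, had 5.36, 4.16 and 0.764 against 7.10, 5.24 and 3.07 (ratio 1.58, 0.667 to 3.85). Oas1a, a single-unit synthetase, had 1 read in each wild-type library and 5, 2 and 0 reads in libraries labelled Morrbid-/-. At these depths no difference was detectable for the 3 genes.

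The Mx genes were at the same floor. Mx1 had 2, 1 and 5 reads in wild type and 2, 2 and 5 in libraries labelled Morrbid-/-, and Mx2 had 2, 2 and 2 against 0, 1 and 3. Their ratios of reads per size factor were 1.40 (0.479 to 4.16) and 0.828 (0.172 to 3.49), intervals that leave room for a change in either direction.

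With IFN-beta each of the 8 genes had at least 385 reads in every library, and genotype differences were small and of both signs. Oas2, Oasl1 and Mx1 were higher in libraries labelled Morrbid-/-, by 12.1% to 16.6% on the fitted scale, and Mx2 was lower there. That is 3 members higher, 1 lower and 4 not called of 8, where 10.1% of all genes tested were called, 5.25% higher and 4.84% lower. The groups did not overlap in 6 of 8 members, where 15.2% of all genes tested did not. The median log2 difference of the 8 was 0.15, beside 0.00 over all genes tested, and their median absolute difference was 0.16, beside 0.15. The members' median size of difference was thus near that over all genes tested, which include genes with far fewer reads and so more counting error. Without the mean-variance trend 0 of 8 members passed, at adjusted p-values of 0.124 for Oas2, 0.124 for Oasl1, 0.185 for Mx1 and 0.178 for Mx2. With no filter on low values Oas2 and Oasl1 passed and Mx1 (0.0662) and Mx2 (0.0632) did not.

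Among the synthetases, Oas2 had 4228, 4361, 4209.7 and 4239.7 in wild type and 4794, 4716, 5143 and 4917 in libraries labelled Morrbid-/-. All 4 of the latter lay above all wild-type libraries (log2 0.20, SE 0.05; limma adjusted p = 0.0131). The call was lost without Morrbid-/- replicate 3 (adjusted p = 0.0649).

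Oas1a had 500.3, 490.5, 449.6 and 598 in wild type and 544, 568, 586 and 605 in libraries labelled Morrbid-/-. Wild-type replicate 4 lay among the latter, and the difference did not pass (log2 0.18, SE 0.08; limma adjusted p = 0.167). Without that library the adjusted p was 0.0318.

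Oas1b went the other way, with 549.9, 625, 592 and 535 in wild type and 501, 526, 499 and 529 in libraries labelled Morrbid-/-. The groups did not overlap, with 535 and 529 closest to each other, but the difference was not called (log2 -0.16, SE 0.07; limma adjusted p = 0.173). Oas3 overlapped, with 3229.6, 3784, 3620.0 and 3281 in wild type and 3291, 3564, 3455 and 3196 in libraries labelled Morrbid-/- (log2 -0.04, SE 0.06; limma adjusted p = 0.738). In this cluster Oas2 was called higher and the other 3 were not called. The estimates of Oas1a and Oas2 were close (log2 0.18 and 0.20), and differences between neighbours were not tested.

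In the Oasl pair, Oasl1 had 1222, 1319.9, 1169 and 1236 in wild type and 1358, 1451, 1462 and 1495 in libraries labelled Morrbid-/-, without overlap (log2 0.22, SE 0.06; limma adjusted p = 0.0204). The call was lost without any 1 of Morrbid-/- replicates 2, 3 and 4 or wild-type replicates 1 and 3, with adjusted p-values of 0.0514 to 0.0619. Its neighbour Oasl2 had 5499, 5533, 5536 and 5433 in wild type and 5747, 5994, 5918 and 6528 in libraries labelled Morrbid-/-. Those did not overlap either, but the difference did not pass (log2 0.14, SE 0.05; limma adjusted p = 0.106). After rescaling to equal totals it did (0.0287).

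**Figure D2:**
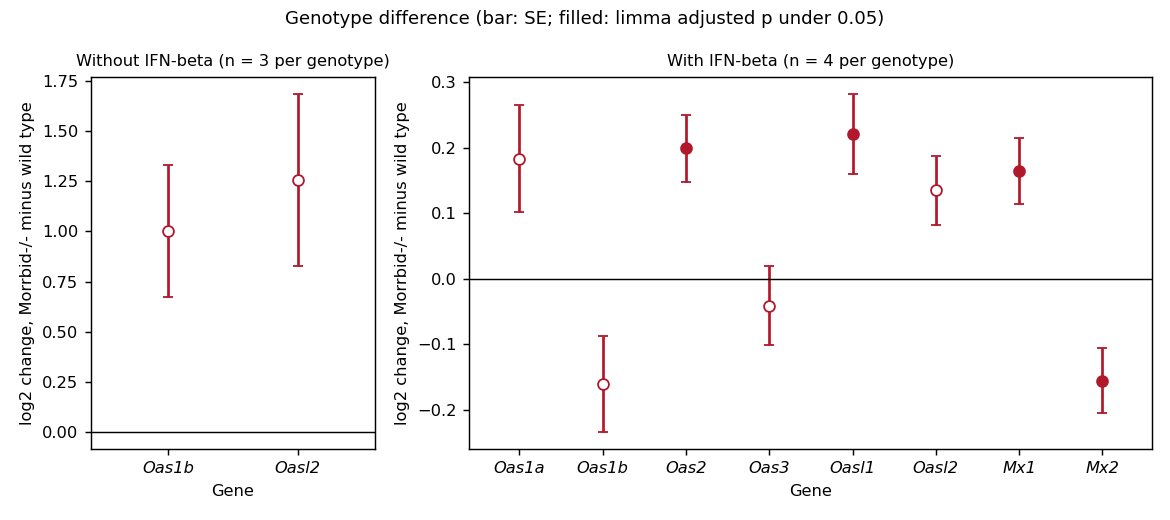
Fitted log2 difference of each gene, Morrbid-/- label minus wild type, with bars of 1 SE and filled points for genes that passed by limma; the left panel, without IFN-beta, and the right panel, with it, have different scales. With IFN-beta Oas2, Oasl1 and Mx1 lie above 0 and Mx2 below it, all within 0.22 of 0, and the members tested without IFN-beta lie at 1.00 and 1.26 with wide bars.

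The Mx genes had genotype differences of opposite sign with IFN-beta. Mx1, whose product acts in the nucleus against influenza viruses in strains with an intact allele, had 13232, 13118, 12408 and 12402 in wild type. In libraries labelled Morrbid-/- it had 14004, 14055, 14703 and 14568, all higher (log2 0.16, SE 0.05; limma adjusted p = 0.0369). Mx2, a cytoplasmic relative, had 4849.7, 4779, 4704 and 4701 in wild type and 4324, 4297, 4261 and 4205 in libraries labelled Morrbid-/-, all lower (log2 -0.16, SE 0.05; limma adjusted p = 0.0462). The Mx1 call was lost on leaving out any 1 library but wild-type replicate 1 (adjusted p 0.0505 to 0.110), and the Mx2 call on leaving out any 1 of the 8 (0.0530 to 0.110). With equal totals Mx2 had an adjusted p of 0.151.

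The ratio of Mx1 to Mx2 reads in a library does not depend on its scaling. It was 2.69 ± 0.06 (SD, n = 4) in wild type, from 2.64 to 2.75, and 3.36 ± 0.12 (SD, n = 4) in libraries labelled Morrbid-/-, from 3.24 to 3.46. The means differed by 0.669. This ratio was chosen after Mx1 had been seen higher and Mx2 lower in every library labelled Morrbid-/-, so it restates those values and is given with no test.

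**Figure D3:**
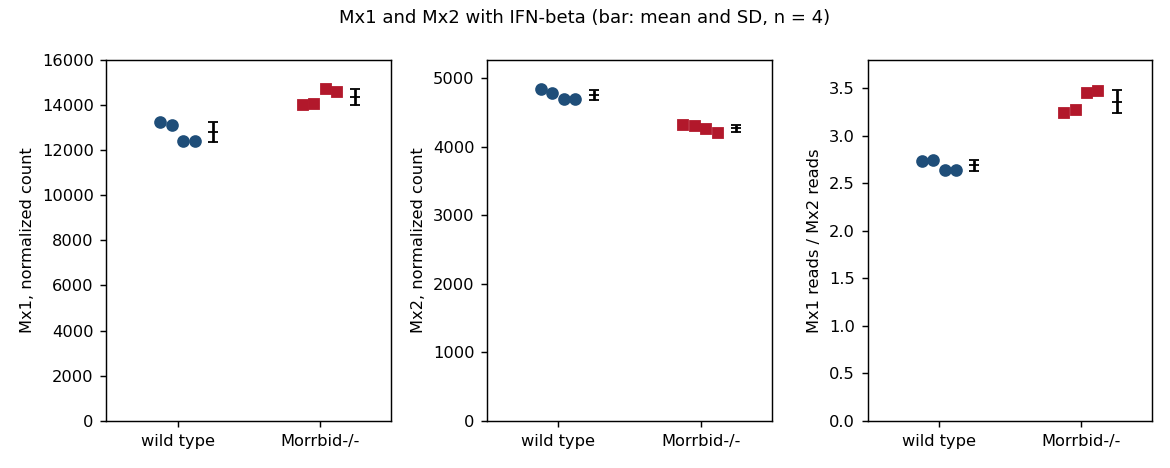
Normalized counts of Mx1 and Mx2 and the ratio of their reads in each library with IFN-beta, with the mean and SD beside the points (n = 4 per genotype) and axes from 0. Every library labelled Morrbid-/- has a ratio of 3.24 or more and every wild-type library one of 2.75 or less.

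The genotype effect itself was compared between the settings in one limma fit of the 4 groups, for genes whose mean reached 10 in each table. For Oas1b the effect with IFN-beta was lower than without it by a log2 difference of -1.16 (SE 0.23; adjusted p = 0.00432). For Oasl2 it was -1.12 (SE 0.27; adjusted p = 0.0257). Both passed, and 1.33% of all 9078 genes tested did, but Oasl2 entered the test through its level in libraries labelled Morrbid-/- without IFN-beta, so nothing is read from the members' count. Here all 14 libraries shared one estimate of the spread, and each SE was smaller than that of the effect without IFN-beta fitted alone (0.33 and 0.43), where neither member passed. The Oas1b result passed on leaving out any 1 of 14 libraries but not without the mean-variance trend (0.0685). The Oasl2 result did not pass by edgeR (0.128) or DESeq2 (0.101), nor without the trend (0.232), nor without any 1 of 6 libraries, wild-type replicate 2 without IFN-beta and, with it, wild-type replicates 1 and 2 and Morrbid-/- replicates 1, 2 and 3 (0.0503 to 0.0582). Of 12 such fits 6 passed, and without Morrbid-/- replicate 2 or 3 of the libraries without IFN-beta Oasl2 fell under the minimum and was not tested. With no filter on low values all 8 members were tested. Then Oasl1 passed as well by limma (log2 -1.74, SE 0.38, adjusted p = 0.0145). That result rests on 2 wild-type reads against 13 in libraries labelled Morrbid-/- without IFN-beta, with the spread pooled over all 14 libraries. Oas3, Oas2, Oas1a, Mx1 and Mx2 did not pass, at adjusted p-values of 0.121, 0.737, 0.830, 0.783 and 0.846.

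Set side by side, with no test because the tables were normalized apart, the members' levels differed between the settings by very unequal amounts. The scale here is RPM, with reads summed over the libraries of a group, with 95% exact counting intervals. Mx1 had 0.981 without and 1888 with IFN-beta in wild type, a ratio of 1925 (977 to 4458). In libraries labelled Morrbid-/- it had 1.41 and 2176, a ratio of 1541 (812 to 3371). Mx2 had 0.736 and 703 in wild type, a ratio of 955 (439 to 2602), and 0.628 and 649 in libraries labelled Morrbid-/-, a ratio of 1033 (404 to 3793).

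The synthetases followed in a wide range. The ratios of RPM with to without IFN-beta were 467 (261 to 935) in wild type and 338 (202 to 619) in libraries labelled Morrbid-/- for Oas2. For Oas3 they were 247 (154 to 423) and 126 (85.7 to 192). For Oas1a, with 3 reads behind the wild-type level, they were 206 (70.4 to 999) and 79.6 (38.6 to 198).

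Oas1b had the lowest ratio of the 8 in both genotypes, with 4.91 and 85.0 RPM in wild type, a ratio of 17.3 (12.7 to 24.3), and 10.4 and 78.0 in libraries labelled Morrbid-/-, a ratio of 7.53 (5.90 to 9.77). For Oasl2 the ratio was 315 (206 to 509.6) in wild type and 143 (105 to 199) in libraries labelled Morrbid-/-. For Oasl1, with 2 wild-type reads, it was 747 (207 to 6166) and 107 (62.7 to 202). The counting intervals of the genotypes did not overlap for Oas1b, Oasl2 and Oasl1, the members whose groups did not overlap without IFN-beta. Both rest on the same few reads without IFN-beta, so the match adds nothing to the earlier values. These intervals also leave out the spread between libraries. Oas1c, which faces Oas1b across the gap printed above, had ratios of 4.85 (3.64 to 6.60) and 4.88 (3.53 to 6.95).

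Levels can be ordered between genes only per length, here as RPM per kb of the union of a gene's exons. Without IFN-beta Oas1b led, at 2.47 ± 0.77 (SD, n = 3) in wild type and 5.34 ± 1.60 in libraries labelled Morrbid-/-, with no overlap with Oasl2, next in order at 0.403 ± 0.235 and 1.01 ± 0.20. Below it each member overlapped the next one in order, in both genotypes. With IFN-beta Mx1 led, at 499 ± 16.1 (SD, n = 4) in wild type and 575 ± 13.1 in libraries labelled Morrbid-/-, and Mx2 followed at 194 ± 2.17 and 179.5 ± 4.19. In wild type Oas2 (141 ± 2.77) and Oasl2 (127 ± 1.38) came next without overlap, then Oas3 and Oasl1, which overlapped, and last Oas1b and Oas1a, which overlapped. In libraries labelled Morrbid-/- the order was Mx2 and Oas2, which overlapped (Oas2 167 ± 6.57), then Oasl2, Oasl1, Oas3, Oas1a (46.4 ± 1.72) and Oas1b (39.2 ± 1.02), each apart from the next. The place of Oas1a in any of these orders is uncertain because of the sequence it shares with Oas1g.

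The make-up of the OAS transcripts therefore differed between the settings. Of the summed reads per kb of the 6 OAS genes, Oas1b held 64.8% ± 15.8 (SD, n = 3) in wild type and 59.6% ± 8.27 in libraries labelled Morrbid-/- without IFN-beta. With IFN-beta it held 8.63% ± 0.47 (SD, n = 4) and 7.08% ± 0.22. Oas2 and Oasl2 together led there: Oas2 held 28.6% ± 0.27 and 30.2% ± 0.97, and Oasl2 25.8% ± 0.58 and 26.0% ± 0.95. As shares of one library these values carry no size factor, and those without IFN-beta rest on a few reads per gene. The sequence shared with Oas1g leaves the reads of Oas1a uncertain, and through the sum this enters every share.

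**Figure D4:**
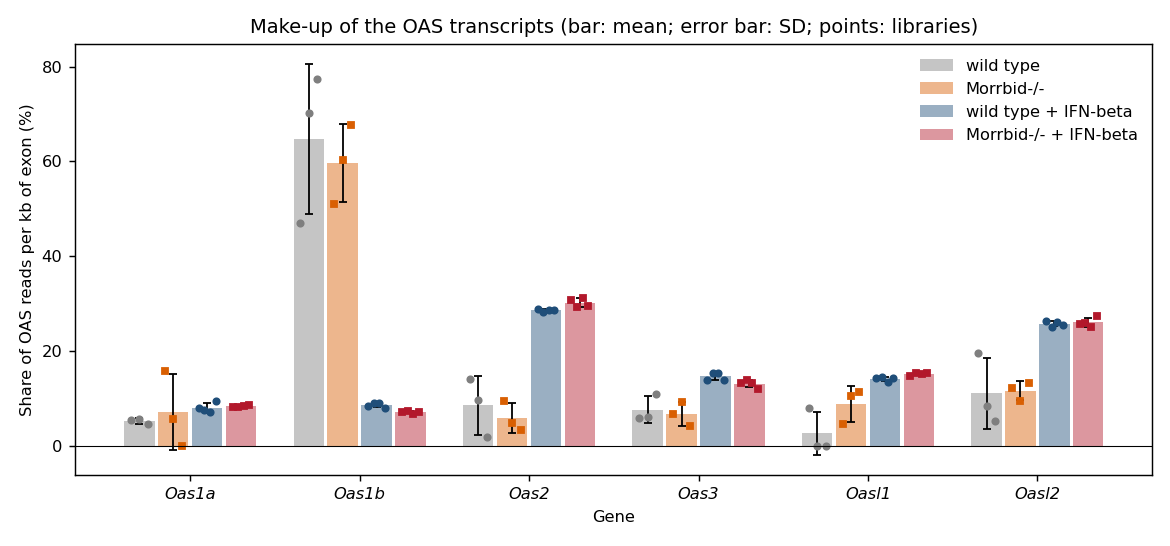
Share of each OAS gene in the summed reads per kb of exon of the 6 OAS genes, as bars from 0 at the group mean, error bars of 1 SD and a point per library. Oas1b has shares of 47.0% to 77.3% in the libraries without IFN-beta and of 6.78% to 9.06% in those with it. The reads of Oas1a are uncertain because of sequence shared with Oas1g.

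Of the 9 listed partners of the 2-5A pathway, among them the other Oas1 genes, the 2′-phosphodiesterase Pde12 and Abce1, 4 were tested in each table. None of the 4 passed by limma without IFN-beta. With it, where 4.84% of all genes tested were lower, 1 of the 4 was lower. That was Abce1, which splits ribosomes for recycling, at 942 ± 74.8 in wild type and 769 ± 58.7 in libraries labelled Morrbid-/- (log2 -0.29, SE 0.07; limma adjusted p = 0.0103). The call was lost without wild-type replicate 1 (0.0547). The list's median log2 difference was -0.05 without IFN-beta and -0.08 with it, beside -0.01 and 0.00 over all genes tested.

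Among other sensors and effectors of double-stranded RNA, 2 of 9 tested were higher and 0 lower without IFN-beta, and 1 of 12 was higher and 0 lower with it. Of all genes tested without IFN-beta, 0.538% were higher and 0.0969% lower, and with it 5.25% were higher and 4.84% lower. Without IFN-beta Zbp1, a sensor of Z-form nucleic acid, had 53.3 ± 10.1 in wild type and 108 ± 21.1 in libraries labelled Morrbid-/- (log2 1.00, SE 0.18; limma adjusted p = 0.00257). Ifih1, which encodes the sensor MDA5, had 24.6 ± 6.45 and 52.1 ± 7.73 (log2 1.07, SE 0.24; limma adjusted p = 0.0266). The Zbp1 call was lost without Morrbid-/- replicate 2 (0.102), and the Ifih1 call without any 1 of wild-type replicate 3 and Morrbid-/- replicates 1 to 3 (0.0607 to 0.211). The list's medians were 0.31 and -0.04.

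Of the 12 genes of the interferon receptor, ISGF3 and its feedback, 4 were higher and 0 lower without IFN-beta, and 1 was higher and 1 lower with it. The shares over all genes tested were 0.538% higher and 0.0969% lower without it, and 5.25% and 4.84% with it. Without IFN-beta Irf1, a transcription factor of interferon responses, had 395 ± 14.7 and 601 ± 47.8 (log2 0.60, SE 0.10; limma adjusted p = 0.000776). Irf9, the DNA-binding part of ISGF3, had 173 ± 7.99 and 252 ± 27.0 (log2 0.54, SE 0.12; limma adjusted p = 0.0239), and its call held on leaving out 1 library only for Morrbid-/- replicate 1, with the other 5 fits at 0.0510 to 0.396. Usp18, a feedback inhibitor at the receptor that was chosen after its values were seen, was also higher (log2 1.34, SE 0.30; limma adjusted p = 0.0284).

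With IFN-beta Irf7, the transcription factor whose mRNA Oasl1 binds, had 4127 ± 187 in wild type and 5199 ± 551 in libraries labelled Morrbid-/- (log2 0.33, SE 0.06; limma adjusted p = 0.00139). Irf1 was lower there, at 3227 ± 141 and 2821 ± 115 (log2 -0.19, SE 0.05; limma adjusted p = 0.0245), and lost its call without wild-type replicate 2 or 4 or Morrbid-/- replicate 1 or 3 (0.0653 to 0.0743). The list's medians were 0.40 and 0.03. Among 7 dynamin relatives of the Mx proteins tested in each table, 0 passed without IFN-beta. With it, where 5.25% of all genes tested were higher, 1 of the 7 was higher. That was Dnm2, a dynamin of endocytosis, at 911 ± 29.6 and 1131 ± 51.8 (log2 0.31, SE 0.06, limma adjusted p = 0.00185). The list's medians were 0.05 and 0.00.

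For the members measured well enough in both tables, the gene with the most similar profile was sought over all 14 libraries, as the smallest root mean square difference of centred log2 values among 5620 genes whose mean reached 50 in each table. For Oas1b it was Gbp9, a guanylate-binding GTPase, with a root mean square difference of 0.19. Gbp9 had 375 ± 34.4 in wild type and 605 ± 86.7 in libraries labelled Morrbid-/- without IFN-beta (log2 0.68, SE 0.11; limma adjusted p = 0.000731), and 13936 ± 521 and 13366 ± 379 with it (log2 -0.06, SE 0.05; limma adjusted p = 0.514). For Oasl2 it was Ifit1, which binds viral RNA ends, with a root mean square difference of 0.37. Ifit1 had 36.5 ± 10.3 and 93.0 ± 7.94 without IFN-beta (log2 1.36, SE 0.20; limma adjusted p = 0.00017), and 27549 ± 1806 and 21232 ± 1752 with it (log2 -0.38, SE 0.06; limma adjusted p = 0.000201). These profiles are dominated by the step between the tables, which all 14 libraries share.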

How the data were processed

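The values deposited by the authors are normalized counts, a non-negative signal, in 1 table per setting. The submitters' processing notes name the builds GRCm38 and mm10 and, without roles, Trimmomatic, STAR 2.5, featureCounts and DESeq2. Libraries were stranded total RNA read as 75-base pairs, per the labels' protocols. No source used here gives the strand setting or annotation of the counting, so overlapping, antisense or near-identical genes may share reads. Dividing by each library's step gave whole reads (within 0.01) for 100% of values.

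Each table's genotypes were compared on their own with limma 3.58.1 (R 4.3.3, trend, log2(value + 1), mean of at least 10, Benjamini-Hochberg over all genes, threshold 0.05). The pseudocount understates changes of low genes. Of 200 genes changed 2-fold in simulated data, 98% were recovered among 9296 genes without IFN-beta and 100% among 9960 with it. The changed genes all had a mean of at least 50, and one spread between libraries was set for all genes. Every member lay under that mean without IFN-beta, so the rate does not apply to the members there. Alternatives included edgeR 4.0.16 and DESeq2 1.42.0 on recovered reads.

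Members, gene lists and marker lists were chosen with earlier results of these data known. Genes named were the members, up to 4 passing genes per list in order of p, and the gene nearest in profile to each member whose mean reached 10 in each table. Some genes that met these rules are not reported here, though they stay in all counts.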

Additional observations from a re-analysis of the deposited data

Results flagged for a closer look

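The genotype effect, Morrbid-/- label minus wild type, differed between the settings by the interaction contrast of limma for Oas1b and Oasl2, of which Oasl2 could be tested only through its higher level in libraries labelled Morrbid-/- without IFN-beta. The effect with IFN-beta minus the effect without it was -1.16 for Oas1b (adjusted p = 0.00432) and -1.12 for Oasl2 (adjusted p = 0.0257). Neither passed without the mean-variance trend (0.0685 and 0.232), and Oasl2 did not by edgeR (0.128) or DESeq2 (0.101). The spread was pooled over all 14 libraries, and fitted alone the effect without IFN-beta passed for neither gene (0.405 and 0.459). Among the other genes named, the same difference passed for Ifit1 at -1.73 (adjusted p = 3.40e-08), Ifih1 at -1.10 (0.000122), Zbp1 at -1.09 (6.02e-05), Irf1 at -0.79 (1.07e-05), Gbp9 at -0.74 (0.000312), Irf9 at -0.53 (0.0047) and Dnm2 at 0.53 (0.00645). It did not pass for Abce1 at -0.33 (0.256) or Irf7 at -0.38 (0.469), and 1.33% of all 9078 genes tested passed. These genes were named for a genotype call, or a profile near that of a member, in the same libraries. Their passing therefore adds no support to the values of the members. The Dnm2 and Irf9 differences did not pass without the trend either (0.0686 and 0.0549). In the 22 groups of 4 libraries examined, no library stood apart from the other 3 by Dixon's criterion.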

How the results depend on the processing

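Without IFN-beta 59 genes passed by limma, against 17 without the trend, 117 in one fit of all libraries, 169 with a replicate block, and 39 to 74 on leaving out 1 library, 39 of them without Morrbid-/- replicate 2. With it 1005 passed, against 305 without the trend, 554 in one fit and 609 to 1021 on leaving out 1 library, the lowest without Morrbid-/- replicate 2. Rescaled to equal totals, 730 were higher and 344 lower, against 523 and 482. The difference of the effects passed for 121 genes, against 66 without the trend, 311 with the block and 97 to 143 on leaving out 1 library.

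Of the members, 0 passed without IFN-beta, 2 in one fit, and 0 to 0 on leaving out 1 library. With it 4 passed, against 0 without the trend, 2 with no filter, 0 in one fit, which tested only Oas1b and Oasl2, and 0 to 3 on leaving out 1 library. For the difference 2 passed, against 0 without the trend, 1 by edgeR, 1 by DESeq2 and 1 to 2 on leaving out 1 library. For Oas3 with IFN-beta the sign turned without wild-type replicate 2, over a range of -0.076 to 0.00049. Uncalled values near 0 also turned: Abce1 without IFN-beta (-0.045 to 0.13 on leaving out 1 library), and with it Ifih1 (-0.042 to 0.0079, and 0.016 with equal totals) and Irf9 (-0.014 to 0.010, and -0.00018 by edgeR). The cause was not tested. Without the trend, no call of the other genes named by rule within a setting passed but that of Dnm2 (adjusted p = 0.0474). With IFN-beta in one fit Irf1 (0.0795) and Irf7 (0.152) did not pass, and with equal totals Irf1 (0.0817) did not. The Mx ratio difference was 0.632 to 0.708 on leaving out 1 library, chosen after seeing the data.

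Whether replicate numbers mark pairs is not stated by the labels and was not settled here. Same-numbered deviations correlated at -0.02 to 0.20 without IFN-beta, over 0.1 in 2 of 3 pairs. With it they correlated at 0.00 to 0.14, over 0.1 in 1 of 4. The block gave 1421 calls with IFN-beta, and 4 of 6 and 6 of 8 libraries correlated best with their own number. Depth limits every member without IFN-beta, where 7 of 8 had under 100 reads in all.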
